A study of Drosophila melanogaster with 2 samples.

Results

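The miRNA hairpins described here carry numbers from miR-954 to miR-1017 and are among the less studied miRNAs of Drosophila melanogaster. They were chosen by name, as every row with a number in that range apart from 17 numbers (miR-957, miR-969, miR-980, miR-993, miR-995, miR-996, miR-998, miR-999, miR-1000, miR-1003 to miR-1008, miR-1010 and miR-1012). This gave 39 of the 174 hairpins of the count tables, or 38 miRNAs, since miR-983 has a pair of copies. They were set beside the 75 hairpins with a number below 400, which hold most of the long known fly miRNAs.

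Small RNA was sequenced from 1 adult and 1 larval library of the central nervous system (CNS). The adult library was made from brains with antennal lobes, dissected 3 to 5 days after eclosion. The larval library was made from ventral ganglia with optic lobes and without eye discs, dissected from wandering larvae of the third instar. Both came from about 100 pooled animals of the strain w[1118] Iso31, raised at 24 °C, with males and females in near equal number. Stage and dissected region change together and cannot be told apart, and the single library of each stage leaves no replicate to check against, so p-values were not computed. Fewer cells that make a miRNA and less of it per cell cannot be told apart either.

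miRNAs are cut from a hairpin, first in the nucleus by Drosha and then in the cytoplasm by Dicer-1. Each hairpin has a 5' and a 3' arm, and the small RNA of either arm can be loaded into an Argonaute protein, where its seed bases select target mRNAs. Numbers are given in order of registration, so high numbers mark hairpins found late, many of them by deep sequencing. Some late entries are mirtrons, short introns that splicing releases as hairpins without Drosha. Others lie in young clusters known from the testis.

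The adult library held 1665159 hairpin reads and the larval library 822500. A level is given as RPM (reads per 1000000 hairpin reads of a library), so that 1 read stood for 0.601 RPM in the adult CNS and 1.22 RPM in the larval CNS. With 0 reads counted, as many as 3 remain possible, which is 1.802 RPM in the adult CNS and 3.65 RPM in the larval CNS. Levels of different hairpins were corrected neither for length nor for the efficiency of ligation. miR-124, a marker of neurons, had 2670 adult and 2109 larval reads. Of the markers of other tissues, miR-1 of muscle had 235 adult and 39 larval reads, miR-318 of the ovary had 38 and 4, and miR-210 of photoreceptors had 29284 adult and 82 larval reads. Intervals are exact 95% intervals (Clopper-Pearson) and cover the counting error of reads only.

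Most of the late hairpins were close to absent from both libraries, while a few reached the levels of well known miRNAs. Of the 39, 37 were listed in the adult library and 28 in the larval library, with 26 in both. Of the 75 hairpins numbered below 400, 73 were listed in the adult CNS and 72 in the larval CNS. The median level of the late hairpins was 2.40 RPM in the adult library (quartiles 1.201 and 93.1) and 2.43 RPM in the larval library (0 and 68.7). For hairpins numbered below 400 it was 556 RPM (45.0 and 3180) in the adult CNS and 660 RPM (27.4 and 3304) in the larval CNS, and over all 174 hairpins 57.1 and 31.6 RPM. Under 10 reads were counted for 59.0% of the late hairpins in the adult CNS and 64.1% in the larval CNS, against 14.7% of those numbered below 400 in either library. The adult library was the deeper one. With as many reads as the larval library, it would list on average 32.9 of the 39 late hairpins and 71.3 of the 75 numbered below 400, beside 28 and 72 in the larval library. The spread of these averages was not computed.

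**Figure D1:**
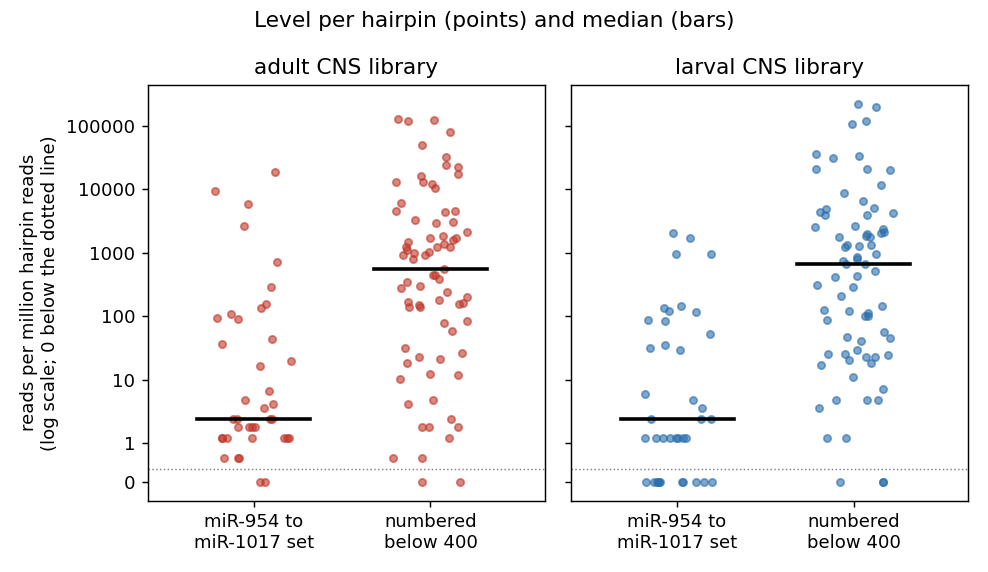
Level of each hairpin in RPM on a log axis, in the adult library (left) and the larval library (right), for the miR-954 to miR-1017 hairpins and those numbered below 400. Points are hairpins, bars are medians, and points under the dotted line have 0 reads. The medians of the late hairpins lie at 2.40 and 2.43 RPM, those of the others at 556 and 660 RPM, and the ranges of the groups overlap.

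Together the 39 hairpins supplied 64576 reads of the adult library, or 3.88% (3.85 to 3.91), and 5411 reads of the larval library, or 0.658% (0.640 to 0.676). That is a 5.90-fold larger share in the adult library (5.73 to 6.06), and 4.05-fold without miR-987. Hairpins numbered below 400 supplied 71.7% of adult and 89.7% of larval reads. The late reads were concentrated in miR-987, miR-981, miR-970 and miR-990, which held 95.5% of them in the adult CNS and 86.7% in the larval CNS. These were also the leading 4 in both libraries, in different order.

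**Figure D2:**
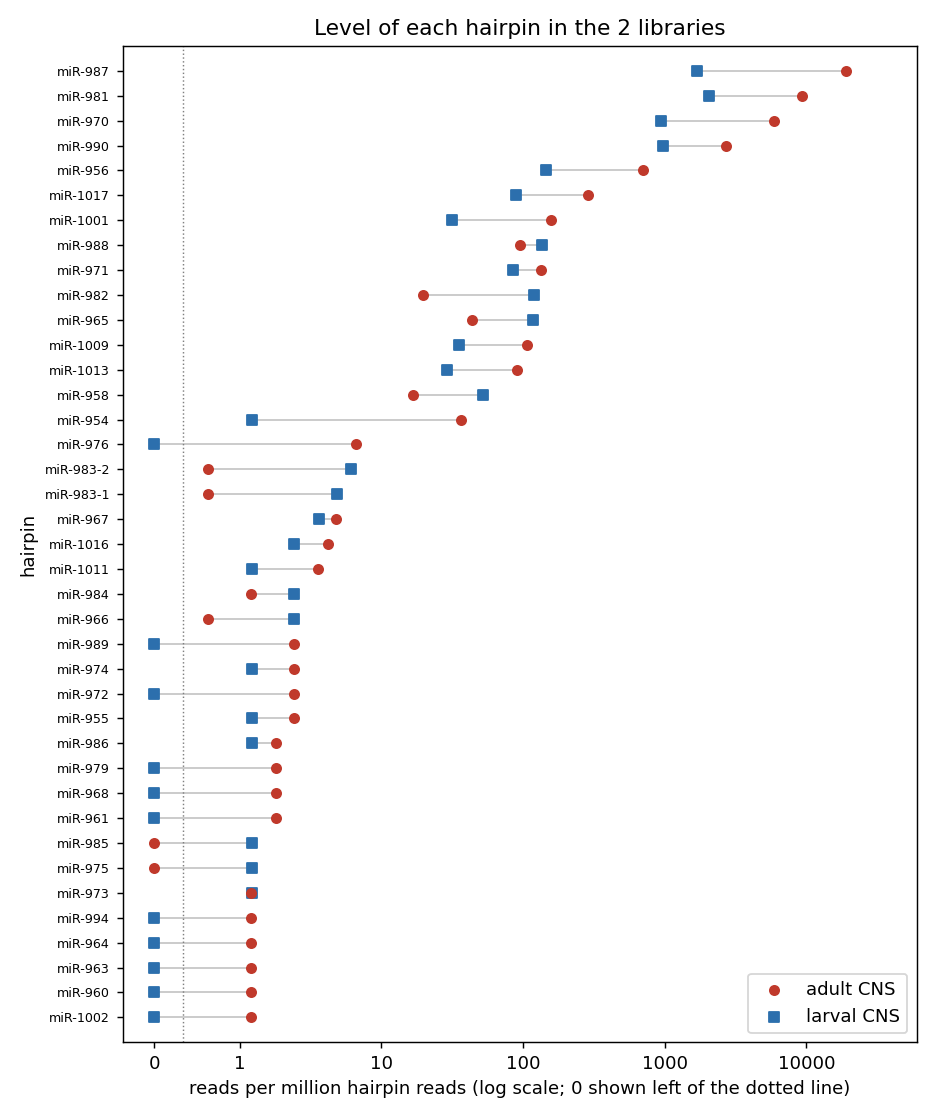
Level of each of the 39 hairpins in RPM on a log axis, with a red circle for the adult and a blue square for the larval library. Hairpins run down the page from the highest level to the lowest, and values of 0 stand left of the dotted line. miR-987, miR-981, miR-970 and miR-990 lie to the right of the others in both libraries.

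miR-987 was the most abundant of them in the adult CNS, with 31715 adult and 1402 larval reads, or 19046 and 1705 RPM. It ranked 12th of all adult hairpins and 39th of the larval ones, and was 11.2-fold (10.6 to 11.8) higher in the adult CNS. The annotation of assembly BDGP6 places its hairpin at 2R, 9313023 to 9313116, on the minus strand, in an exon of the noncoding RNA CR45918 and in introns of CG13739 and CG13954.

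miR-981 had 15594 adult and 1705 larval reads, 9365 and 2073 RPM, and led the late hairpins in the larval library. It was 4.52-fold (4.30 to 4.75) higher in the adult CNS. Its hairpin lies at X, 1788861 to 1788957, on the minus strand, with no gene on its own strand and prage on the opposite one. miR-970 had 9870 adult and 781 larval reads, 5927 and 950 RPM, a 6.24-fold difference (5.80 to 6.72). It lies in an intron of Tomosyn, whose protein limits neurotransmitter release, at X, 12636336 to 12636430. miR-990 had 4490 adult and 803 larval reads, 2696 and 976 RPM, and was 2.76-fold (2.56 to 2.98) higher in the adult CNS. It lies at 2R, 16895223 to 16895308, in an intron of CG8910. The levels of miR-990 and miR-970 in the larval library were the 1 pair of neighbours, among the 6 in the order of these 4 in either library, whose counting intervals overlapped.

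The libraries were compared for hairpins with 20 or more reads in sum and a level of 10 RPM or more in one of them. A call needed a ratio of levels of 2 or more, with an exact interval that excluded 1. Of the late hairpins 15 of 39 passed this floor, against 69 of 75 hairpins numbered below 400. Of these 15, 10 had adult calls and 3 had larval calls. Over all 114 hairpins past the floor the shares called were 40.4% for the adult and 24.6% for the larval library. Among the 69 hairpins numbered below 400, 21 had adult calls and 20 had larval calls. The median log2 ratio, adult over larval, was 1.60 over the 15 late hairpins, -0.18 over the 69 and 0.47 over all 114. Of the 15 only miR-954 was under 10 RPM in a library, so its passing of the floor rested on the library where it is high. Without it the other 14 had 9 adult and 3 larval calls and a median of 1.595.

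These ratios follow the total used for scaling. With a total that leaves out the 14 hairpins among the 10 most abundant of either library, every log2 ratio drops by 0.52. The late hairpins then had 9 adult and 4 larval calls and a median of 1.08. Hairpins numbered below 400 had 18 adult and 31 larval calls, and all hairpins had 40 and 41, or 35.1% and 36%, with a median of -0.05.

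**Figure D3:**
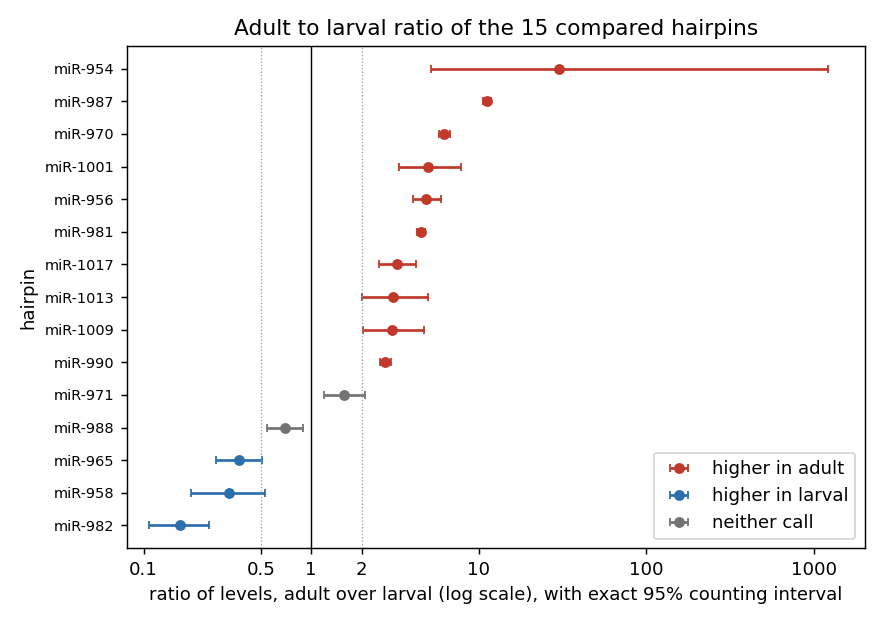
Ratio of levels, adult over larval, on a log axis for the 15 late hairpins past the floor, with exact 95% counting intervals. Red marks hairpins called higher in the adult library, blue those called higher in the larval library and grey those with neither call, and dotted lines stand at 0.5 and 2. The 10 red intervals lie wholly above 1 and the 3 blue intervals wholly below it.

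Among the less abundant hairpins that were higher in the adult library, miR-956, a miRNA of the antiviral response of the fly, had 1181 adult and 120 larval reads and was 4.86-fold higher (4.03 to 5.92). It lies at 3L, 11773731 to 11773878, with no other gene on its strand. miR-1001 had 263 adult and 26 larval reads, a ratio of 5.00 (3.33 to 7.79). Its hairpin overlaps tau, which encodes a microtubule-binding protein of axons, and counts as exon or intron there depending on the transcript. miR-954 had 61 adult reads and 1 larval read. Its ratio of 30.1 has an interval of 5.21 to 1209 and rests on that single larval read.

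The mirtrons form a group of their own, and the annotation places them as such. miR-1009, miR-1011, miR-1013 and miR-1016 each span a whole intron to within 5 bases of both splice sites. miR-1017 starts at the 5' end of an intron of nAChRalpha2, a subunit of the nicotinic acetylcholine receptor, and ends inside that intron, the layout of a mirtron with a 3' tail. Of the 7 mirtrons on the list, 5 were in the tables and 3 passed the floor. These 3 had adult calls, against 40.4% of all hairpins past the floor. Of the 8 mirtrons among the numbers left out by the rule, all past the floor, 4 had adult calls, 1 a larval call (miR-1008) and 3 neither (miR-1003, miR-1004 and miR-1010). miR-1017 had 479 adult and 73 larval reads, 3.24-fold (2.53 to 4.20). miR-1009 had 179 adult and 29 larval reads, 3.05-fold (2.05 to 4.68). It counts as exon or intron of CG3860, depending on the transcript. miR-1013, in an intron of wts, the growth-restraining kinase Warts, had 150 adult and 24 larval reads, 3.09-fold (1.998 to 4.97). Each of these intervals contains the ratios of the other two. miR-1011 had 6 adult reads and 1 larval read, and miR-1016 had 7 and 2.

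The 3 hairpins that were higher in the larval library had low counts. miR-965, which acts in the division and migration of abdominal precursor cells and lies in an intron of kis, a chromatin remodeller gene, had 73 adult and 97 larval reads, or 43.8 and 118 RPM. It was 2.69-fold higher in the larval library (1.97 to 3.70). miR-958 had 28 adult and 43 larval reads, 3.11-fold higher in the larval library (1.89 to 5.20). miR-982 had 33 adult and 99 larval reads, or 19.8 and 120 RPM, and was 6.07-fold higher in the larval library (4.06 to 9.30). With exact reads alone, 8 adult and 15 larval, it was 3.70-fold higher there and kept its call.

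miR-982 belongs to the X-linked clusters known from the testis. The other 9 rows of these clusters, among them its neighbours miR-983 and miR-984 within 10 kb, had at most 11 adult and 5 larval reads each. The whole list of 10 rows summed to 36.6 RPM in the adult CNS and 137 RPM in the larval CNS, most of it miR-982. The part of other tissue in the level of miR-982 was not tested.

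The remaining pair met neither call. miR-971, in an intron of the memory gene rsh (radish), had 223 adult and 70 larval reads, a ratio of 1.57 (1.20 to 2.09). miR-988, in an intron of Prp8, which encodes the core protein of the spliceosome, had 160 adult and 113 larval reads, a ratio of 0.699 (0.546 to 0.898). With the total that leaves out the most abundant hairpins, miR-988 was 2.05-fold higher in the larval library and joined that call. miR-990 lost its adult call there, at a ratio of 1.93.

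The 24 hairpins under the floor had 77 adult and 25 larval reads in all, and none had other reads of the hairpin. Of these, 11 were listed in the adult library only, 2 in the larval library only (miR-975 and miR-985, with 1 read each) and 11 in both. miR-976 had the highest adult count, 11 reads against 0 larval reads. The exact interval of its ratio has a lower limit of 1.24. The next adult counts were 8 for miR-967, 7 for miR-1016 and 6 for miR-1011. The highest larval counts were 5 and 4, for the miR-983 copies, which had 1 adult read each. None of the reads of these copies fitted a single hairpin, so they amount to 1 uncertain measurement. The other counts were too low to show a difference between the libraries.

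Apart from miR-982 of the testis clusters, the late hairpins of the sets known from other tissues were under the floor. The miR-959 cluster of the fat body, tied to feeding and immune rhythms, had 4 of its 6 miRNAs in the tables, miR-960, miR-961, miR-963 and miR-964, with 9 adult reads in all and 0 larval reads. miR-989, which acts in the migration of border cells in the ovary, had 4 adult and 0 larval reads, and miR-994, the neighbour of miR-318 of the ovary, had 2 and 0. miR-318 itself, which is numbered below 400, had 38 adult and 4 larval reads. It passed the floor and had an adult call, at a ratio of 4.69 (1.69 to 18.1). miR-968 and miR-1002, 51 bases apart in the same noncoding RNA, had 3 and 2 adult reads and no larval reads.

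All 39 names were found in the annotation. Of the 15 compared hairpins 11 lay in a gene on their own strand, noncoding RNA genes included, and miR-982 alone had another listed hairpin within 10 kb. Of the 24 under the floor 8 lay in a gene on their own strand and 16 had another listed hairpin within 10 kb. Under the floor, those with a neighbour and those without a host gene were mostly members of the clusters named above. They are not separate cases, so these counts are not read as a difference between the groups. No share over all hairpins was set beside these counts. Hairpin lengths ran from 54 to 174 bases.

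In several late hairpins with enough reads, nearly all mature reads came from a single arm, as in many hairpins numbered below 400. Among the 13 that had 20 or more mature reads at both stages, miR-990 had reads on the 5' arm only, and miR-956, miR-1009 and miR-1017 on the 3' arm only. For miR-990 that was 4486 adult and 801 larval reads on the 5' arm, and for miR-956 1155 and 117 reads on the 3' arm. The sources used here do not give the annotation release behind the counts, and an arm without an entry in it could not have been counted as mature. In the Ensembl annotation miR-956 and miR-990 have both forms, but miR-1009 and miR-1017 have a 3' mature form only, as do miR-1011 and miR-1013. For the latter a mature 5' count of 0 is no measure of the 5' arm. Reads counted to neither arm, where 5' reads would then stand, were 3 of 179 adult and 1 of 29 larval reads in miR-1009. miR-1017 had 1 of 479 and 0 of 73, miR-1011 had none, and miR-1013 had more, as given below. Reads on 1 arm only were found in 5 of 55 hairpins numbered below 400 and in 10 of 86 over all hairpins. Of 9 late hairpins with reads on both arms, 5 had over 95% on 1 arm in the adult CNS and 3 in the larval CNS. Of 50 such hairpins numbered below 400 it was 31 in either library, and of all 76 it was 46 and 44. miR-987 was nearly limited to the 5' arm, with a 5' share of 99.96% of mature reads in the adult CNS and 99.8% in the larval CNS. miR-970 had a 5' share of 0.380% and 0.770%.

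In 9 late hairpins with reads on both arms, the 5' share had a median of 30.6% in the adult CNS and 28.6% in the larval CNS. In 50 hairpins numbered below 400 it was 23.4% and 33.2%. A share counted as different when the libraries were 10 or more percentage points apart and their exact intervals were separate. This held for 2 of the 9 late hairpins, miR-981 and miR-965, for 11 of the 50 and for 22.4% of all hairpins tested, so the late hairpins stood near the background.

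The arms of miR-981 differed between the libraries in opposite directions. Its 5' share was 2.40% in the adult CNS (2.17 to 2.66) and 19.3% in the larval CNS (17.4 to 21.2). The 3' arm had 14958 adult and 1371 larval reads, or 8983 and 1667 RPM, and was 5.39-fold (5.10 to 5.70) higher in the adult CNS. The 5' arm had 368 adult and 327 larval reads, or 221 and 398 RPM, and was 1.799-fold higher in the larval library (1.55 to 2.09), under the ratio of 2 that a call needs. Arms with intervals on opposite sides of a ratio of 1 occurred in 11 of 56 hairpins with both arms past the floor, 19.6%, and miR-981 was the only one of 6 late hairpins among them. Among exact reads alone its 5' share was 3.66% in the adult CNS and 25.1% in the larval CNS, again a difference by the rule.

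The majority arm of miR-965 differed between the libraries. Its 5' share was 30.6% in the adult CNS (20.2 to 42.5) and 73.2% in the larval CNS (63.2 to 81.7). The 5' arm had 22 adult and 71 larval reads, or 13.2 and 86.3 RPM, and was 6.53-fold higher in the larval library (4.002 to 11.1). The 3' arm had 50 adult and 26 larval reads, or 30.03 and 31.6 RPM, a ratio of 0.950 (0.580 to 1.59). The larval call of the hairpin thus came from its 5' arm. With exact reads alone the 5' share was 54.3% and 90.9%, which moved in the same direction without a change of the majority.

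In miR-971 the 5' arm was 2.57-fold (1.58 to 4.38) higher in the adult CNS, with 104 adult and 20 larval reads. Its 3' arm had 118 adult and 50 larval reads, a ratio of 1.17 (0.831 to 1.66). The intervals of its 5' share, 46.8% (40.1 to 53.6) in the adult CNS and 28.6% (18.4 to 40.6) in the larval CNS, overlapped narrowly. In miR-988 the share was 20% and 14.2%, with overlapping intervals.

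**Figure D4:**
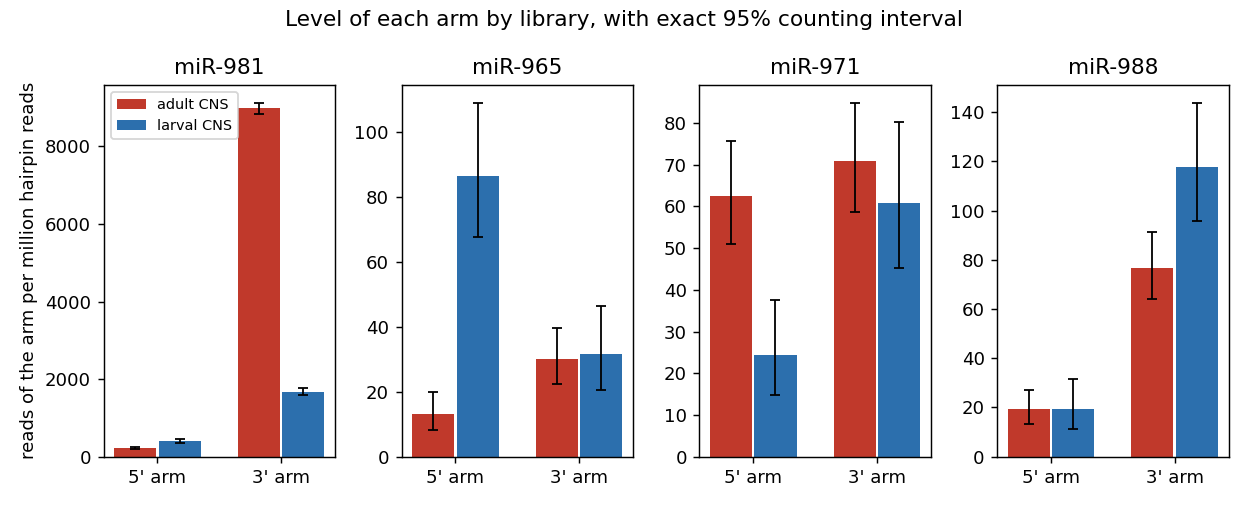
Level of the 5' and 3' arm of miR-981, miR-965, miR-971 and miR-988 in RPM, on linear axes from 0 that differ between panels, with red bars for the adult and blue bars for the larval library. Error bars are exact 95% counting intervals. In miR-981 the 3' arm is higher in the adult and the 5' arm higher in the larval library, and in miR-965 the intervals of the 5' arm alone are apart.

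Reads equal to the annotated mature form, called exact here, made up a similar part of the late hairpins and of those numbered below 400. Over the 13 late hairpins with enough reads the median exact share was 54.4% in the adult CNS and 62.0% in the larval CNS. Over 55 hairpins numbered below 400 it was 54.5% and 60.5%. The share differed by the same rule in 1 of the 13 late hairpins, against 21 of the 55 and 31.4% of all hairpins tested. With a minimum of 50 reads it differed in 1 of 9 and in 19 of 47. The part of read number in these counts was not tested. The exception was miR-981, with 62.9% exact in the adult CNS (62.1 to 63.7) and 74.0% in the larval CNS (71.8 to 76.0). Pooled over all reads, which the abundant hairpins decide, 53.8% of adult and 57.6% of larval mature reads of the late hairpins were exact, and 74.8% and 76.8% of those numbered below 400.

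Single late hairpins spanned most of the scale. miR-1001 had the lowest exact share, 13.8% in the adult CNS (9.85 to 18.6) and 11.5% in the larval CNS (2.45 to 30.2). miR-1009 had 93.8% and 89.3%, and miR-958 89.3% and 88.4%. The abundant miR-987 had 43.5% in the adult CNS (43.0 to 44.1) and 34.7% in the larval CNS (32.2 to 37.3), so most of its reads differed from the annotated form, and miR-990 had 41.5% and 39.0%. The arms of a hairpin could differ: in miR-971 every 3' read was exact in both libraries, but 27.9% of adult and 25% of larval 5' reads were. The 24 hairpins under the floor had 33 exact of 77 mature adult reads, 42.9% (31.6 to 54.7), and 10 of 25 larval reads, 40.0% (21.1 to 61.3).

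**Figure D5:**
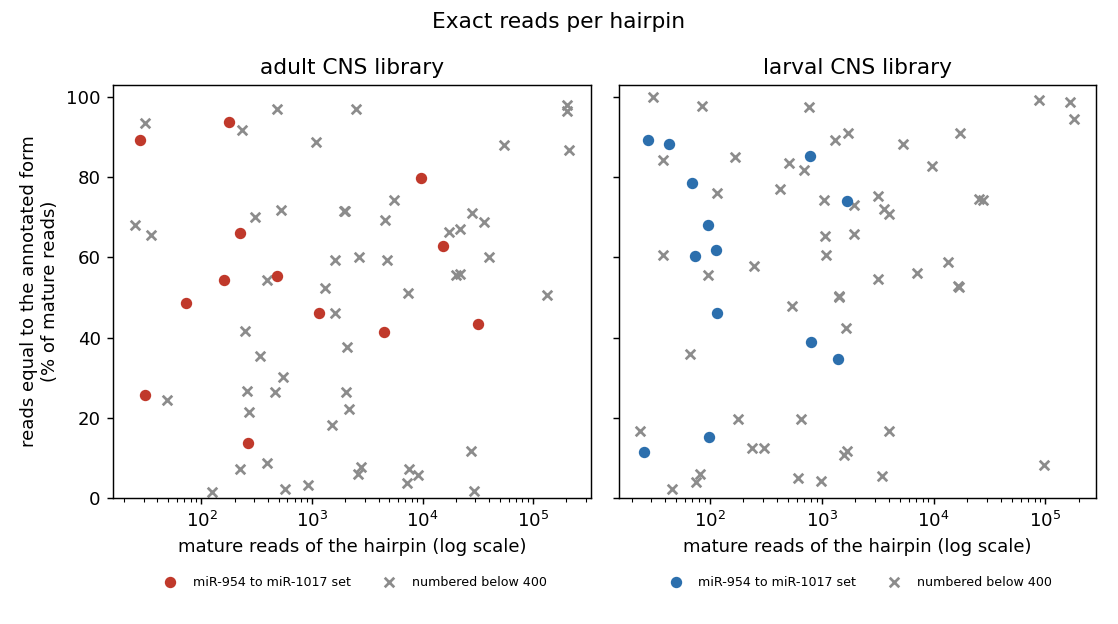
Share of exact reads in percent of mature reads against the number of mature reads of a hairpin on a log axis, in the adult (left) and larval (right) library. Filled points are the 13 late hairpins that had 20 or more mature reads at both stages and crosses the 55 such hairpins numbered below 400. Both groups spread over most of the range, with medians of 54.4% and 54.5% in the adult and 62.0% and 60.5% in the larval library.

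Other reads are those of a hairpin that were counted to neither mature arm. Over the 14 with at least 20 reads in each library they had a median share of 1.06% in the adult CNS and 0.124% in the larval CNS. Over 55 hairpins numbered below 400 it was 1.70% and 1.12%. The larval median of the late hairpins rests on low counts, with a lower quartile of 0. With a minimum of 50 reads the medians were 0.615% and 0.249% over 9 late hairpins, and 2.03% and 1.29% over 49 numbered below 400. The share differed by the rule in 0 of the 14, in 6 of the 55 and in 8.99% of all hairpins tested. The highest shares of the late hairpins belonged to the mirtron miR-1013, with 18 of 150 adult reads, 12.0% (7.27 to 18.3), and 6 of 24 larval reads, 25% (9.77 to 46.7). The Ensembl annotation gives miR-1013 no 5' mature form. If the annotation behind the counts gave none either, reads of its 5' arm would stand among these, which was not tested. miR-1009 and miR-1017, also without a 5' form in Ensembl, had other shares of 1.68% and 0.209% in the adult library. In miR-981 they were 1.72% of reads in the adult library (1.52 to 1.94), against 0.411% in the larval library (0.165 to 0.844), and in miR-970 1.45% (1.22 to 1.71), against 0.256% (0.0310 to 0.922), both under the required 10 points.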

How the data were processed

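The authors deposited 1 table of read counts per library, with a row per annotated miRNA hairpin. Trimmed reads stand there by arm, with columns for reads outside the arms, for exact reads and for reads matching only 1 hairpin, per the file headers. The submitters' processing notes name CASAVA 1.8 and the build dm3. Which aligner, counter and miRNA annotation were used is not stated in the sources used here. Reads that match several hairpins enter each of their rows. Molecular identifiers were not used, so reads are not independent molecules.

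Counts were scaled to the 1665159 adult and 822500 larval hairpin reads. A hairpin without a row in a table was taken as 0 reads. For log2 ratios (adult over larval) each count had 0.5 reads added. Floor, calls and share rules were applied to all 174 hairpins. The call rule was tested on simulated counts that held counting error only, so that test says nothing of variation between libraries. The floor on summed reads weighs the deeper adult library more. Hosts and positions come from Ensembl release 115 (assembly BDGP6) by name and were not combined with dm3 positions. The authors' deposited comparison and candidate hairpins were not used here.

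All late hairpins past the floor are named, with the highest counts under it. Hairpins, lists and rules were chosen with earlier results of these data known. Alternatives were TMM factors (edgeR 4.0.16), DESeq2 1.42.0 size factors, a total that omits the 10 leading hairpins of each library, mature, exact or single-hairpin reads, other floors and minimums, and 1 copy per miRNA. The adult library at the larval depth and the calls without miR-954 were added after seeing the data. Python 3.11.15 and scipy 1.17.1 were used.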

Additional observations from a re-analysis of the deposited data

How the results depend on the processing

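No paired analysis was possible because each stage has 1 library, and no library could be left out. Of 75 recomputed log2 ratios of single late hairpins, 73 kept their direction and call. The exceptions came when the most abundant hairpins were left out of the total, where miR-990 stood at 0.94 and lost its call and miR-988 stood at -1.04 and gained a larval one, since that total lowers every ratio alike. Adult calls among the late hairpins ranged from 9 to 11 and larval calls from 3 to 4 over the alternatives run. The number compared was 15, but 14 without miR-954 and 39 without a floor. Over all hairpins the shares called ran from 27.6% to 42.4% for the adult and 17.8% to 36% for the larval library. Both were lowest without a floor. Without a floor miR-976 was added to the adult and a copy of miR-983 to the larval calls. With mature reads only, the adult median of hairpins numbered below 400 was 420 RPM. With exact reads only, 6 late hairpins were left for the 5' share. Their median was 16.6% in the adult CNS and 11.1% in the larval CNS. miR-982 and miR-1001 had too few exact reads for the minimum, and miR-987 had no exact reads on its 3' arm. The median 5' share of hairpins numbered below 400 was then 48.4% in the larval library. With 1 copy per miRNA the larval median exact share of hairpins numbered below 400 was 65.3%. The cause of the changes in the 420 RPM, 48.4% and 65.3% medians was not tested. The 24 hairpins under the floor reached at most 6.61 RPM in the adult and 6.08 RPM in the larval library, under the 10 RPM required. For them a few reads decide presence.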
